A study of Mus musculus with 8 samples.

Results

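The 40 genes described here move and store zinc, copper and iron. They were selected by gene symbol: every Slc30a and Slc39a gene on the array and 16 named genes for copper and iron transport, iron storage, metallothioneins and metal sensors. All 40 are among the 19505 genes measured, each through 1 probe set, which is a group of probes for 1 gene. The samples were sorted mouse mammary luminal cells, the epithelium that makes milk, taken on day 15 of pregnancy. Of the arrays, 4 carried cells labelled a3a6KO and 4 carried cells labelled Ctrl, called control below. In a3a6KO, a3 and a6 stand for integrin alpha chains that form receptors for laminin. The titles of the a3a6KO samples also carry the word Ctrl, so the group follows the cell subtype label. The sources used here do not give the strain, the Cre driver or the deleted parts of the genes. The comparison addresses how luminal cells labelled as lacking both chains differ while the gland prepares for lactation.

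Milk carries zinc, copper and iron to the young, so the secretory cell has to take these metals up from blood and pass them on. Transporters of the Slc39a (ZIP) family bring zinc into the cytosol, and those of the Slc30a (ZnT) family move it out of the cytosol, across the plasma membrane or into vesicles. Metallothioneins buffer zinc and copper, 2 P-type pumps load copper into the secretory pathway, and iron enters bound to transferrin and is stored in ferritin. The names lethal milk and toxic milk, given to mice with mutations in Slc30a4 and Atp7b, come from the effect of such milk on the pups.

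Values are log2 signals per probe set after RMA, the standard summary of Affymetrix probes, and every difference is a3a6KO minus control. Background was taken as the 95th percentile of the 5222 negative control sets of the same array, which lay between 6.38 and 6.90. A gene below it can still be measured, but its difference is compressed. Between 11.5% and 16.6% of all genes exceeded background on single arrays. Itga6 was at 5.95, 3.65, 8.21 and 7.85 in a3a6KO 1 to 4, against 8.83, 8.73, 9.14 and 8.80 in control 1 to 4, and Itga3 averaged 5.15 ± 0.58 in a3a6KO and 6.42 ± 0.80 in control (SD, n = 4 each). Neither passed over all genes (limma, adjusted p = 0.944 for each), and a3a6KO 3 and 4 held more Itga6 signal than a3a6KO 1 and 2. Itga3 exceeded background on 1 array only, that of control 4. Its groups overlapped, with a3a6KO 3 and 4 at 5.55 and 5.60 and control 3 at 5.37. Of 15 luminal markers 14 were measured, and all 14 exceeded background on every array. Of the 14, 7 had higher and 7 lower means in a3a6KO, with a median difference of -0.016. Krt8, Krt18, Epcam and Cdh1 were among the higher, and the milk genes Csn2 (12.40 in a3a6KO, 12.54 in control) and Wap (11.64 in a3a6KO, 12.23 in control) among the lower. Differences ran from -0.745 (Muc1) and -0.74 (Lalba) to 0.2425 (Cldn3). In limma 0 of the 14 passed, and unadjusted p was under 0.05 for 3, Muc1, Lalba and Wap, against 5.13% of all genes. Only the groups of Muc1 did not overlap, as was seen in 2.94% of all genes. The summed linear level of the 14, in which Csn2 and Wap weigh more than any other member, was 17658 to 20071 in a3a6KO and 20231 to 23512 in control. Of 12 basal cell markers, 12 had lower means in a3a6KO, where 49.6% of all genes were higher. Their differences ran from -2.535 (Krt5) to -0.0475 (Tagln). Only the groups of Trp63 (-2.43) did not overlap, against 2.94% of all genes. Krt5 exceeded background on 4 arrays and Trp63 on 1. In limma 0 of the 12 passed, and unadjusted p was under 0.05 for 4 of the 12, against 5.13% of all genes. The summed levels of the 12 were 826 to 3020 in a3a6KO and 1260 to 4264 in control. The part of either marker list in the results below was not tested. In bulk samples, fewer cells of a type and less RNA per cell cannot be told apart.

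Promoter sequences of Mt1, Mt2 and Slc30a1 are shown because these genes are known targets of the zinc sensor Mtf1, and because the paired metallothionein values are described below. Each window runs from 250 bases before to 50 bases after the annotated start, from RefSeq on build GRCm38.p6, and all 3 lie on the plus strand. Capitals mark the core of the metal response element, searched as TGCACNC and TGCGCNC on both strands.
Mt1, chr8:94178839-94179138: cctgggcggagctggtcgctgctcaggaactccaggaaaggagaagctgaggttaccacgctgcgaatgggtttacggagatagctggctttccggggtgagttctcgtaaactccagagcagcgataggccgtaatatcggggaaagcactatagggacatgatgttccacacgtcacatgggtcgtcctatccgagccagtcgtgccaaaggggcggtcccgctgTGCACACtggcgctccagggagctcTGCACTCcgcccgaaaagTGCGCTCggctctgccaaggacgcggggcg
Mt2, chr8:94172368-94172667: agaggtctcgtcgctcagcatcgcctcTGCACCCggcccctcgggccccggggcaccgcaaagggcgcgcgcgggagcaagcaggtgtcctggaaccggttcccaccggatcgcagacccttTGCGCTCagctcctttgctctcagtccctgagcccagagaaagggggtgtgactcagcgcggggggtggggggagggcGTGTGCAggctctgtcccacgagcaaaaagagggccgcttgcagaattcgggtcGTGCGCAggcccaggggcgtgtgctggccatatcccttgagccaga
Slc30a1, chr1:191906531-191906830: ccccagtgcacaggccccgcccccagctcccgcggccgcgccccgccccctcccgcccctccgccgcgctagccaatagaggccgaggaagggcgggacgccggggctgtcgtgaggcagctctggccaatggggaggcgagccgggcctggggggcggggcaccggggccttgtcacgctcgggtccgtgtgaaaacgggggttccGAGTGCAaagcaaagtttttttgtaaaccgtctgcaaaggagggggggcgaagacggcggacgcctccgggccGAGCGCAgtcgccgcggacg
The Mt1 window held 3 matches, all on the gene's strand and first met at positions -23, 3 and 21 from the annotated start. The Mt2 window held 4 matches, 2 on each strand, at positions -223, -128, -50 and 5. The Slc30a1 window held 2, both on the opposite strand, at positions -43 and 31. No match overlapped another. Of 32851 mouse promoter windows of the same length, 25.7% held at least 1 match, 7.11% at least 2, 1.97% at least 3 and 0.517% at least 4. Of the 40 genes, 33 had such a window, and 18 of these held a match in at least 1 window. That count is by gene, and some genes, such as Tfrc, had 2 windows, whereas the shares above are by window. Slc30a4 and Slc30a10 had 3 matches each, Slc30a2, Atp7a and Tfrc 2 each, and Mtf1, Fth1, Ftl1 and Atox1 had 0. A match describes letters only, not binding. Counts and positions hold for the annotated starts, which were not checked against measured starts of transcription.

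None of the metal-handling genes differed past the threshold. In limma, 0 of 40 had an adjusted p under 0.05, as did 0% of all genes, and the smallest adjusted p among the 40 was 0.944. Unadjusted p was under 0.05 for 2 of 40 genes, Slc11a2 and Slc39a6, against 5.13% of all genes. The groups did not overlap, with all a3a6KO values above or all below every control value, in 0 of 40 genes, against 2.94% of all genes. Means were higher in a3a6KO for 19 genes and lower for 21, where 49.6% of all genes were higher, and with each array centred on its median the split was 21 to 19. The median difference over the 40 genes was -0.005, beside -0.0025 over all genes, and the median size of the difference was 0.17, beside 0.18. Of the 40 genes 6 differed by at least 1.5-fold, against 7.79% of all genes: Slc11a2, Slc39a6 and Slc39a11 were higher in a3a6KO, and Slc39a8, Ireb2 and Mtf1 were lower. Of these 6, only Slc39a6 exceeded background on every array.

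**Figure D1:**
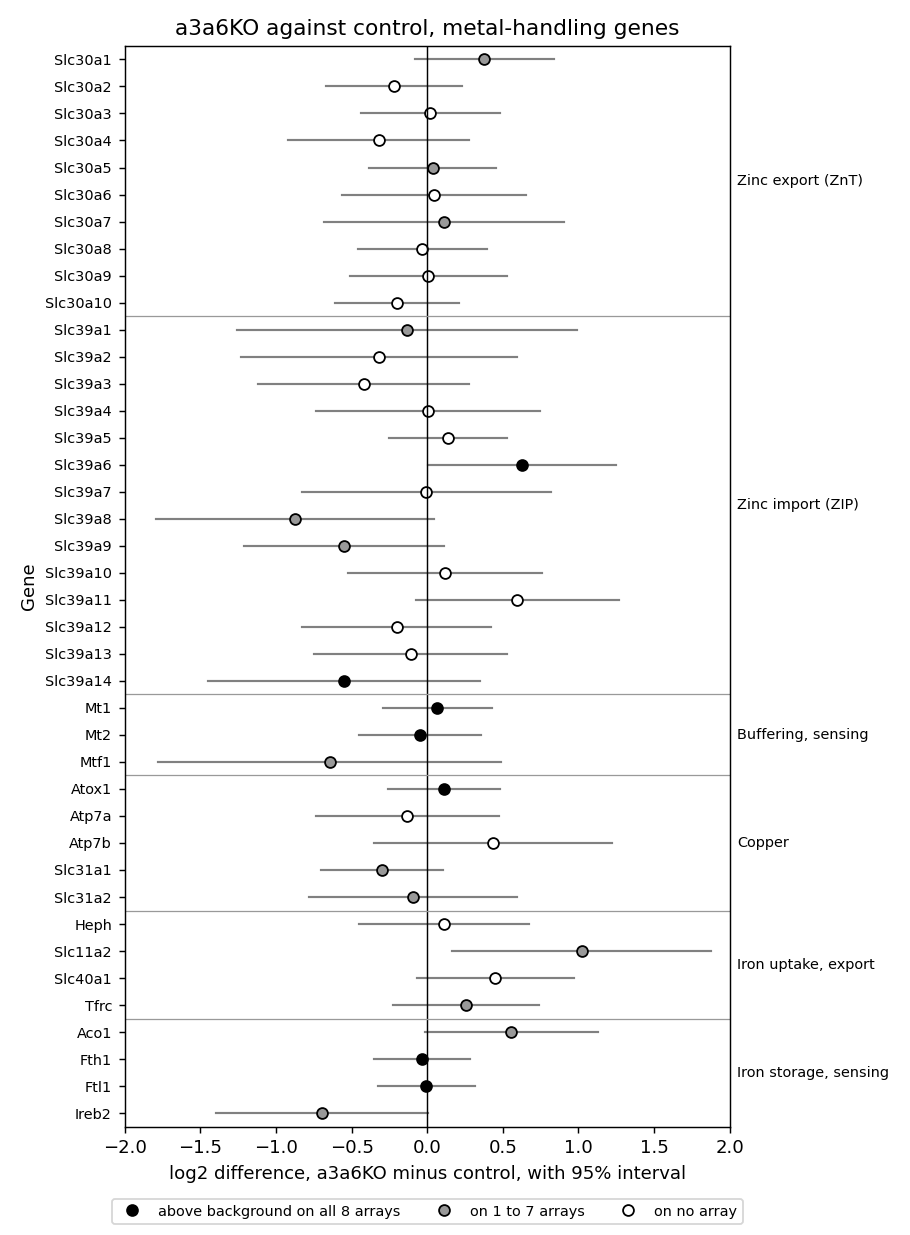
The log2 difference of each gene, a3a6KO minus control, with its 95% interval from limma, grouped by role. Filled points exceeded background on all 8 arrays, grey points on 1 to 7 and open points on none. Only the intervals of Slc11a2 (0.16 to 1.88) and Slc39a6 (0.0027 to 1.25) lie clear of 0, before any adjustment for the number of genes tested.

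The 40 genes fell into 3 detection classes. On all 8 arrays, 7 genes exceeded background: Mt1, Mt2, Fth1, Ftl1, Atox1, Slc39a6 and Slc39a14. On some arrays 13 did, and 20 did so on no array. The last class held 7 of 10 ZnT genes and 9 of 14 ZIP genes, along with Atp7a, Atp7b, Slc40a1 and Heph. On at least 4 arrays, 12 of the 40 genes exceeded background, beside 2774 of all 19505 genes. Within groups, the median SD of the 40 genes was 0.41, beside 0.34 over all genes.

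**Figure D2:**
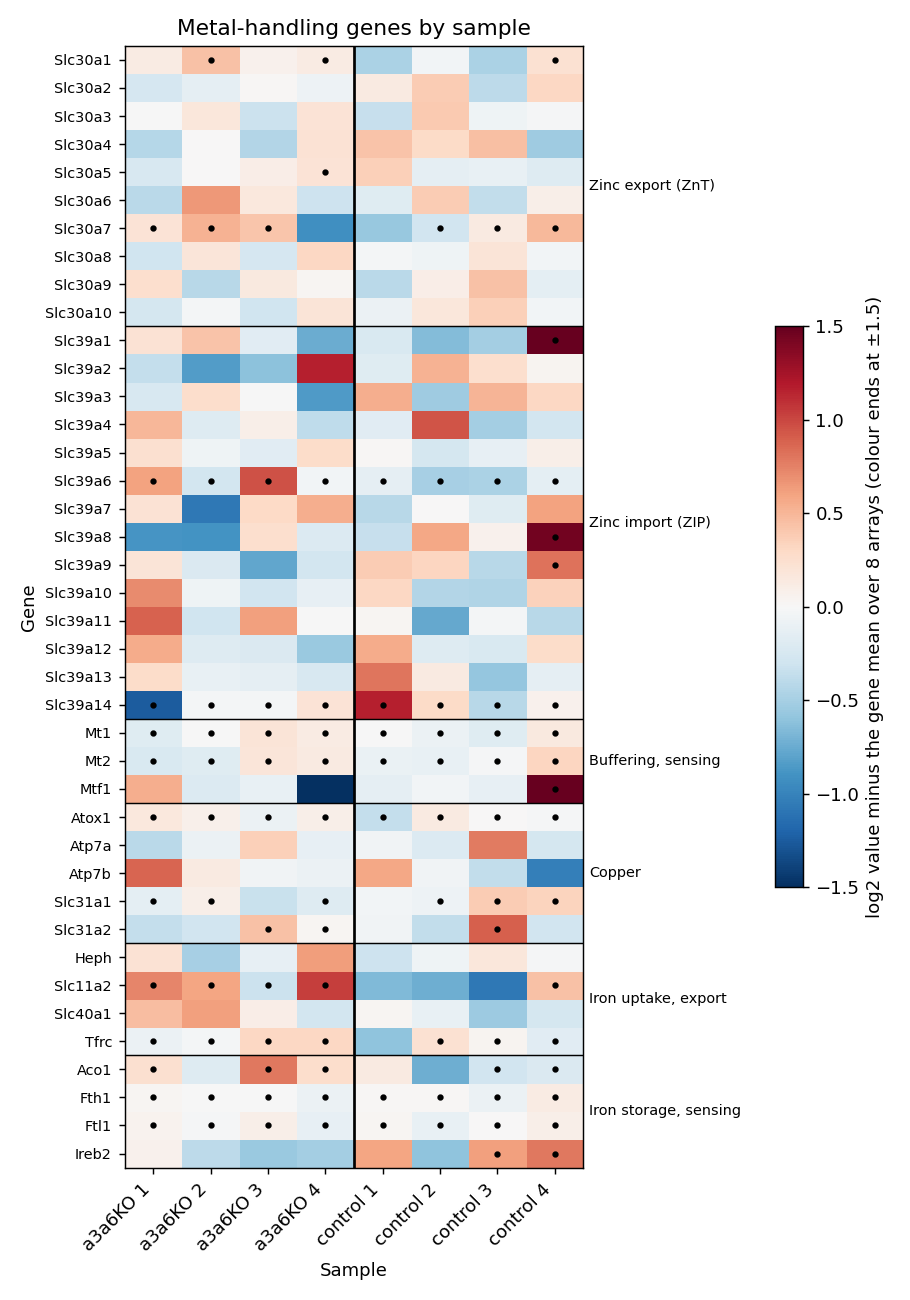
Deviation of each log2 value from the mean of that gene over the 8 arrays, by gene (rows, by role) and sample (columns, a3a6KO left of the line and control right of it). Red is above the gene's mean and blue below it, the colour ends at 1.5 on either side, and a dot marks a value above background on that array. The rows of Mt1, Mt2, Fth1, Ftl1 and Atox1 are pale throughout, and control 4 holds the highest value of Slc39a1, Slc39a8, Slc39a9 and Mtf1.

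The metallothioneins, small cysteine-rich proteins that bind zinc and copper, were at like levels in both groups. Mt1 was at 10.98, 11.16, 11.36 and 11.29 in a3a6KO 1 to 4, against 11.16, 11.08, 10.98 and 11.31 in control 1 to 4. Mt2 was at 11.59, 11.63, 12.00 and 11.95 in a3a6KO, against 11.71, 11.70, 11.80 and 12.14 in control. The groups overlapped for both genes, though for Mt2 a3a6KO 1 and 2 lay below every control and control 4 above every a3a6KO sample. The difference of Mt1 was 0.065 (SE 0.16) and that of Mt2 -0.045 (SE 0.179), each smaller than its standard error (limma, adjusted p = 0.978 and 0.986). The 95% intervals, -0.30 to 0.43 for Mt1 and -0.45 to 0.36 for Mt2, reach at most 1.34-fold and 1.36-fold to either side.

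Mt1 and Mt2 lie beside each other on chromosome 8, and their values varied together from sample to sample. The highest values of both were in a3a6KO 3, a3a6KO 4 and control 4, above the other 5 samples on each gene. Over the 8 samples Pearson's r was 0.776 (exact permutation p = 0.0288, adjusted p = 0.115 over the 4 pairs examined) and Spearman's rho 0.747 (exact permutation p = 0.0407, adjusted p = 0.163). With the group means removed, r was 0.836 (permutation p = 0.0130, adjusted p = 0.0520). Here p is approximate, because the deviations from the group means were shuffled across both groups. Without the 2 samples farthest from the Mt1 median, of which the second is a tie, r was 0.654 (without a3a6KO 3 and a3a6KO 1, exact permutation p = 0.161) or 0.873 (without a3a6KO 3 and control 3, exact permutation p = 0.0194). The relation missed the threshold once adjusted, except without control 3 (r = 0.885, exact permutation adjusted p = 0.0492). No r is given within the groups, which hold 4 samples each. Endothelial markers had summed levels of 729 in a3a6KO 3 and 961 in control 4, against 154 to 320 in the other 6 samples, a3a6KO 4 among them at 264. Fibroblast markers stood at 334 in a3a6KO 3 and 287 in control 4, against 141 to 188 in the other 6, and adipocyte markers at 2498 in a3a6KO 3 and 2839 in control 4, against 557 to 1660. The adipocyte sum was mostly the signal of 1 gene, Fabp4 (mean 10.35 in a3a6KO, 10.25 in control). The other measured adipocyte markers exceeded background on no array. The part of these markers in the metallothionein values was not tested.

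**Figure D3:**
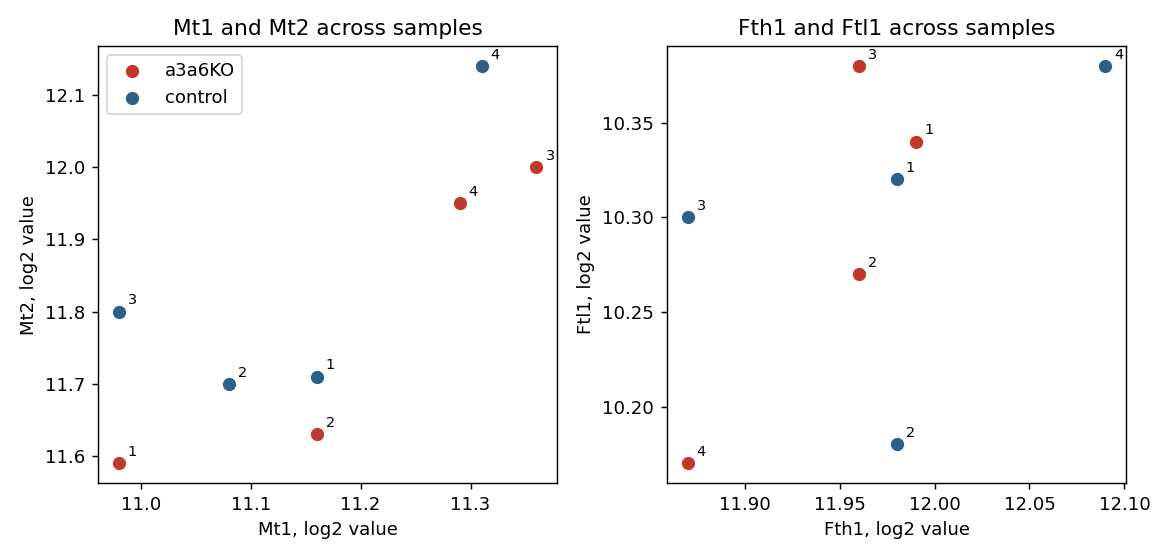
Log2 values of Mt2 against Mt1 (left) and of Ftl1 against Fth1 (right), 1 point a sample, with a3a6KO in red, control in blue and the replicate number beside the point. In the left panel a3a6KO 3, a3a6KO 4 and control 4 lie at the upper right, and in both panels the groups intermingle over a range of under 0.6 log2 units.

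Mtf1, the transcription factor that senses zinc and drives metallothionein genes, was measured mostly below background. It was at 6.09, 5.34, 5.44 and 4.03 in a3a6KO 1 to 4, against 5.41, 5.51, 5.43 and 7.13 in control 1 to 4. The difference of -0.65 (SE 0.503, limma adjusted p = 0.950) rested on 2 samples. It was -0.23 without control 4, the only array on which Mtf1 exceeded background, and -0.25 without a3a6KO 4, the lowest value. Mt1 and Slc30a1, both targets of Mtf1, showed no clear relation across the 8 samples (r = 0.389, exact permutation p = 0.345, adjusted p = 0.460; rho = 0.291, exact permutation p = 0.472, adjusted p = 0.629).

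Among the 10 ZnT genes, 6 had higher and 4 lower means in a3a6KO, with a median difference of 0.014 and 0 past the threshold (limma, adjusted p of 0.944 to 0.998). Slc30a1 encodes the zinc exporter of the plasma membrane. It was at 6.59, 6.90, 6.53 and 6.58 in a3a6KO, against 5.99, 6.42, 5.99 and 6.69 in control. The a3a6KO values lay above 3 of the 4 control values, and control 4 exceeded all but a3a6KO 2. The difference was 0.38 (SE 0.204, adjusted p = 0.944), and Slc30a1 exceeded background on 2 a3a6KO arrays and 1 control array.

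Both ZnT genes best known from milk were below background on every array. The negative control sets had medians between 2.85 and 3.07, which both genes exceeded, Slc30a4 by more than Slc30a2. Slc30a2 loads zinc into secretory vesicles, and its mutation in women gives milk low in zinc. It was at 3.45, 3.57, 3.72 and 3.63 in a3a6KO, against 3.84, 4.08, 3.31 and 4.01 in control, a difference of -0.22 (SE 0.199, limma adjusted p = 0.950). Of the control values, 3 stood above every a3a6KO value and that of control 3 below them all, and the difference was -0.38 without control 3 and -0.13 without control 2. Slc30a4, the gene of the lethal milk mouse, was at 5.45, 5.89, 5.44 and 6.10 in a3a6KO, against 6.31, 6.17, 6.33 and 5.35 in control. Here too 3 control values exceeded every a3a6KO value, while control 4 was the lowest sample of all. The difference was -0.32 (SE 0.265, adjusted p = 0.950), and -0.55 to -0.22 with any 1 sample left out.

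The other ZnT genes lie in organelles or belong to other tissues. Slc30a5 and Slc30a6, which pair in the early secretory pathway, differed by 0.035 (SE 0.185) and 0.045 (SE 0.271). Slc30a7 of the Golgi, above background on 3 arrays of each group, ranged from 6.21 to 7.66 in a3a6KO and from 6.57 to 7.62 in control. Its difference was 0.11 (SE 0.352), and -0.057 to 0.44 with any 1 sample left out. Slc30a3 of synaptic vesicles, Slc30a8 of insulin granules, Slc30a9 and the manganese exporter gene Slc30a10 exceeded background on no array, with differences of 0.02, -0.033, 0.0075 and -0.20. All lay within their standard errors except that of Slc30a10 (SE 0.182).

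Among the 14 ZIP genes, 9 had lower and 5 higher means in a3a6KO, 1 of the 9, Slc39a7, turning higher when arrays were centred on their medians or normalized by cyclic loess. The median difference was -0.12 and 0 of 14 passed (limma, adjusted p of 0.944 to 0.998). Slc39a6, also called LIV-1 and known as an estrogen-regulated gene in human breast cancer cells, exceeded background on every array. It was at 7.87, 7.0, 8.23 and 7.23 in a3a6KO, against 7.14, 6.77, 6.80 and 7.12 in control. Of the a3a6KO values, 3 lay above every control value, and a3a6KO 2 lay between the lower and the upper pair of controls. The difference was 0.63 (SE 0.276, 1.54-fold, limma adjusted p = 0.944), and 0.41 to 0.82 with any 1 sample left out.

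Slc39a14 transports zinc, manganese and iron not bound to transferrin, and it too exceeded background on every array. It was at 7.55, 8.77, 8.77 and 9.01 in a3a6KO, against 9.97, 9.09, 8.38 and 8.87 in control. The spread came from a low a3a6KO 1 and a high control 1, with the other 6 samples between 8.38 and 9.09. The difference of -0.55 (SE 0.4, limma adjusted p = 0.950) was -0.23 without a3a6KO 1, -0.255 without control 1 and -0.79 without control 3.

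Slc39a8, the closest relative of Slc39a14 and a carrier of zinc and manganese, had the most negative difference of the 40 genes. It was at 4.21, 4.20, 5.35 and 4.89 in a3a6KO, against 4.75, 5.68, 5.16 and 6.55 in control. Control 4 alone exceeded background, and a3a6KO 3 lay above 2 of the 4 controls. The difference was -0.87 (SE 0.408, limma adjusted p = 0.944), and -1.13 to -0.53 with any 1 sample left out. The samples with the highest value in each group, a3a6KO 3 and control 4, were also those with the most endothelial, fibroblast and adipocyte marker signal, and a3a6KO 3 had the most basal marker signal of its group (3020, against 826 to 918 in the other 3). Of 8 endothelial markers 0 exceeded background on every array and 2 on none. Of 8 fibroblast markers 7 were measured and 6 exceeded background on no array, and of 7 adipocyte markers 6 were measured and 5 did so on none, with Fabp4 above it on all. The part of these marker lists in the Slc39a8 values was not tested.

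Slc39a11 and Slc39a9, both found on Golgi membranes, had differences of opposite sign, Slc39a11 below background on every array and Slc39a9 on all but that of control 4. Slc39a11 was at 5.01, 3.83, 4.75 and 4.12 in a3a6KO, against 4.16, 3.36, 4.10 and 3.71 in control, a difference of 0.60 (SE 0.298, limma adjusted p = 0.944). Slc39a9 was at 5.92, 5.51, 4.95 and 5.45 in a3a6KO, against 6.11, 6.05, 5.31 and 6.55 in control, a difference of -0.55 (SE 0.294, adjusted p = 0.944). For Slc39a11, a3a6KO 1 and 3 lay above every control, and for Slc39a9, control 1, 2 and 4 lay above every a3a6KO sample. The remaining ZIP genes differed by -0.42 (Slc39a3) to 0.14 (Slc39a5). They include Slc39a4, the intestinal zinc importer (0.005, SE 0.33), Slc39a7, which releases zinc from the endoplasmic reticulum (-0.005, SE 0.367), Slc39a10, the nearest relative of Slc39a6 (0.12, SE 0.286), and Slc39a13, known for its role in connective tissue (-0.11, SE 0.283). Slc39a1, at 7.41 in control 4, differed by -0.14 (SE 0.499), and by -0.38 to 0.40 with any 1 sample left out. Slc39a2 and Slc39a12 differed by -0.32 and -0.20, with no array above background. With any 1 sample left out, Slc39a2 ranged from -0.76 to -0.093, Slc39a12 from -0.42 to -0.05 and Slc39a3 from -0.67 to -0.21.

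None of the 5 copper genes passed the threshold, with 2 higher and 3 lower in a3a6KO (limma, adjusted p of 0.946 to 0.984). Slc31a1, the high-affinity copper importer, was at 6.79, 7.02, 6.60 and 6.74 in a3a6KO, against 6.90, 6.86, 7.32 and 7.27 in control. All a3a6KO values but that of a3a6KO 2 lay below every control value. The difference was -0.30 (SE 0.18, adjusted p = 0.946). Its relative Slc31a2 differed by -0.093 (SE 0.305), and by -0.25 to 0.19 with any 1 sample left out.

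Atox1, the chaperone that hands copper to both copper pumps, exceeded background on every array and varied little. It was at 9.41, 9.33, 9.16 and 9.34 in a3a6KO, against 8.90, 9.39, 9.26 and 9.24 in control, a difference of 0.11 (SE 0.164, limma adjusted p = 0.969) whose 95% interval reaches 1.40-fold. The pump genes were below background on every array. Atp7a, the pump that supplies copper enzymes in the Golgi, was at 5.07, 5.39, 5.84 and 5.35 in a3a6KO, against 5.43, 5.27, 6.26 and 5.22 in control, a difference of -0.13 (SE 0.269). Atp7b, the toxic milk gene, was at 6.64, 5.91, 5.72 and 5.68 in a3a6KO, against 6.35, 5.72, 5.40 and 4.75 in control, a difference of 0.43 (SE 0.349, adjusted p = 0.950). The groups overlapped for both pumps, and the Atp7b difference was 0.16 to 0.70 with any 1 sample left out.

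All 4 genes of iron entry and exit had higher means in a3a6KO, where 49.6% of all genes were higher. The differences ran from 0.11 to 1.02, and none passed (limma, adjusted p of 0.944 to 0.978). That of Heph was -0.079 without a3a6KO 4, and Heph and Slc40a1 exceeded background on no array. Slc11a2, or DMT1, carries iron out of endosomes into the cytosol, and it had the smallest p of the 40 genes. It was at 8.13, 7.99, 7.07 and 8.44 in a3a6KO, against 6.73, 6.66, 6.32 and 7.84 in control. In a3a6KO 1, 2 and 4 the value lay above every control value, whereas a3a6KO 3 lay below control 4. The difference was 1.02 (SE 0.38, 2.03-fold), with an unadjusted p of 0.0243 and an adjusted p of 0.944. It was 0.83 to 1.34 with any 1 sample left out. Slc11a2 exceeded background on 4 of 4 a3a6KO arrays and on 1 of 4 control arrays.

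Tfrc, the transferrin receptor that brings iron into the cell, was at 6.85, 6.91, 7.24 and 7.25 in a3a6KO, against 6.33, 7.16, 6.97 and 6.76 in control. The a3a6KO values lay within the upper part of the control range or just above it. The difference was 0.26 (SE 0.214, limma adjusted p = 0.950), and 0.099 to 0.38 with any 1 sample left out, the lowest without control 1, the only array on which Tfrc was below background. Slc40a1, or ferroportin, the only known exporter of iron, was at 4.06, 4.21, 3.69 and 3.32 in a3a6KO, against 3.62, 3.48, 3.05 and 3.33 in control, all below background. Its difference was 0.45 (SE 0.231, adjusted p = 0.944), with a3a6KO 4 among the controls. Heph, the ferroxidase that works with ferroportin, differed by 0.11 (SE 0.249) and was also below background throughout. Tfrc and Slc11a2, whose transcripts can both carry an iron-responsive element, showed no clear relation (r = 0.162, exact permutation p = 0.729, adjusted p = 0.729; rho = 0.119, exact permutation p = 0.793, adjusted p = 0.793).

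**Figure D4:**
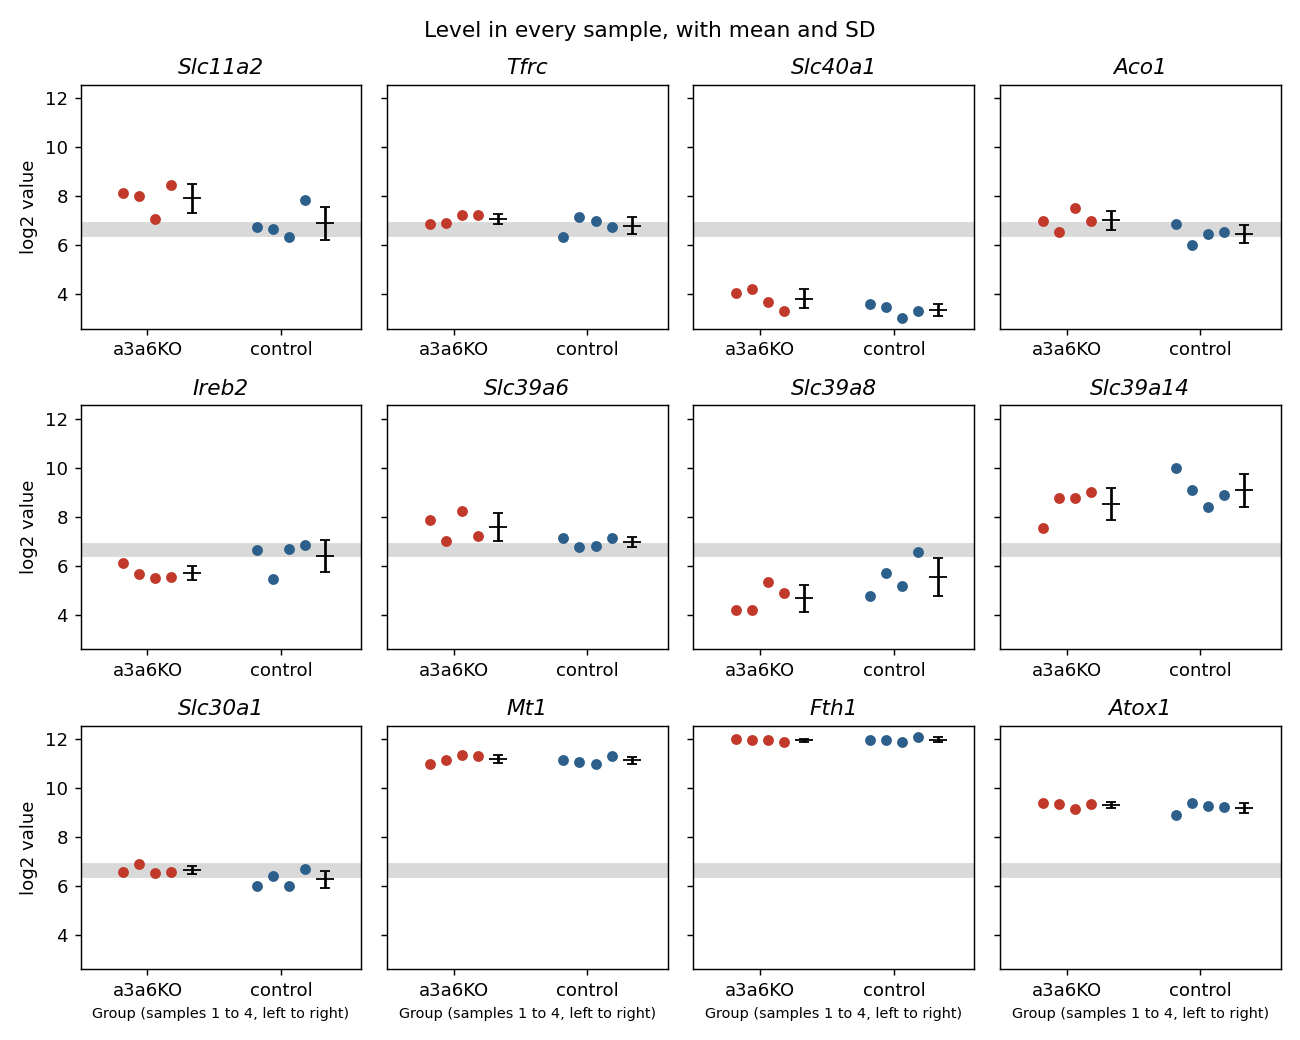
Log2 value in every sample for 12 genes, a3a6KO (red) left of control (blue), samples 1 to 4 from left to right, with the mean and SD of each group in black. The grey band spans background on the 8 arrays (6.38 to 6.90). Slc11a2 lies above the band in all 4 a3a6KO samples and in control 4, whereas Mt1, Fth1 and Atox1 lie far above it with almost no spread.

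The ferritin subunits had the narrowest ranges over the 8 samples of the 40 genes, 0.22 for Fth1 and 0.21 for Ftl1. Fth1, the subunit that oxidizes iron for storage, was at 11.99, 11.96, 11.96 and 11.87 in a3a6KO, against 11.98, 11.98, 11.87 and 12.09 in control. Ftl1, the light subunit, was at 10.34, 10.27, 10.38 and 10.17 in a3a6KO, against 10.32, 10.18, 10.30 and 10.38 in control. The groups overlapped throughout. The differences were -0.035 (SE 0.14) and -0.005 (SE 0.143), with 95% intervals that reach 1.28-fold and 1.25-fold (limma, adjusted p = 0.986 and 0.998). Across samples the subunits had r = 0.533 (exact permutation p = 0.179, adjusted p = 0.358) and rho = 0.555 (exact permutation p = 0.158, adjusted p = 0.316). Ferritin is regulated largely at translation by the iron regulatory proteins, so transcript levels do not report its protein.

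The genes of both iron regulatory proteins differed in opposite directions, neither past the threshold. Aco1 encodes cytosolic aconitase, which binds iron-responsive elements when it lacks its iron-sulfur cluster. It was at 6.98, 6.55, 7.53 and 7.0 in a3a6KO, against 6.87, 6.0, 6.45 and 6.52 in control, so 3 a3a6KO values lay above every control value. The difference was 0.56 (SE 0.254, limma adjusted p = 0.944), and 0.38 to 0.71 with any 1 sample left out. Ireb2, which is degraded when iron is plentiful, was at 6.12, 5.66, 5.50 and 5.54 in a3a6KO, against 6.64, 5.45, 6.67 and 6.84 in control. All a3a6KO values lay below 3 of the controls and above control 2. The difference was -0.70 (SE 0.312, adjusted p = 0.944), and -1.01 to -0.55 with any 1 sample left out. Ireb2 exceeded background on 0 a3a6KO arrays and 2 control arrays.

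Of 42 further iron genes 40 were measured, 14 higher and 26 lower in a3a6KO, where 49.6% of all genes were higher, with a median difference of -0.14 and 0 past the threshold in limma. Unadjusted p was under 0.05 for 4 of the 40, against 5.13% of all genes, and 23 exceeded background on no array. Cpox, an enzyme of heme synthesis, was at 4.35, 4.41, 3.94 and 4.13 in a3a6KO, against 5.10, 5.58, 4.78 and 4.59 in control, and it was the only gene of the list whose groups did not overlap, as was seen in 2.94% of all genes. Its difference was -0.81 (SE 0.236, adjusted p = 0.944), all of it below background. The heme transporter gene Slc48a1 was at 6.78, 5.97, 5.59 and 7.48 in a3a6KO, against 7.39, 7.81, 7.24 and 7.73 in control (-1.09, SE 0.381). Ltf, which encodes the iron-binding milk protein lactoferrin, averaged 6.10 ± 0.58 in a3a6KO and 7.12 ± 0.70 in control (SD, n = 4 each), a difference of -1.02 (SE 0.39). Steap1, a metalloreductase relative, differed by -1.01 (SE 0.412), and by -0.65 without control 1. Steap1 exceeded background on no array, Ltf on 2 arrays and Slc48a1 on 6. The 3 share an adjusted p of 0.944.

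Of 16 further copper genes 14 were measured, 10 higher and 4 lower, with a median difference of 0.06. The mitochondrial copper chaperone gene Cox11 differed by -0.86 (SE 0.408), Ccs, the chaperone of superoxide dismutase, by 0.64 (SE 0.405), Cutal by 0.36 (SE 0.257) and the mitochondrial carrier gene Slc25a3 by 0.23 (SE 0.169). With any 1 sample left out, Cox11 ranged from -1.14 to -0.51, Ccs from 0.43 to 0.96 and Cutal from 0.17 to 0.56. Of the 14 copper genes measured, 9 exceeded background on no array, Cox11, Ccs and Cutal among them. All 15 further zinc genes were measured, 4 higher and 11 lower, with a median of -0.21. Mt4 differed by -1.23 (SE 0.762) because control 2 stood at 7.02 and the other 7 samples between 2.66 and 3.77, and by -0.33 without control 2. The channel kinase gene Trpm7 differed by -0.39 (SE 0.247), the calprotectin subunit gene S100a8 by -1.38 (SE 0.931) and the carbonic anhydrase gene Car6 by 0.74 (SE 0.59). S100a8 differed by -0.59 without a3a6KO 1 and by -2.26 without a3a6KO 3, Car6 by 0.15 without a3a6KO 4 and Trpm7 by -0.24 without control 1. Trpm7 exceeded background on 8 arrays, S100a8 on 3, and Car6 and Mt4 on 1 each. In both lists 0 genes passed and 0 had an unadjusted p under 0.05 in limma. Markers that bear on iron in other cells were low. Of 10 erythroid markers 3 were measured and 0 exceeded background, and of 13 leukocyte and macrophage markers 12 were measured and 10 exceeded background on no array, with summed levels of 248 to 412 in a3a6KO and 292 to 620 in control.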

How the data were processed

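Luminal mammary cells were digested from tissue and sorted, and their RNA was amplified and biotin-labelled, per the labels' protocols. The authors deposited 1 log2 value for each probe set on each array, made with Affymetrix Expression Console and RMA, per the submitters' processing notes. RMA equalizes the arrays by quantiles, so a shift shared by most genes is removed. The sources used here give no versions and no genome build. Of 28846 probe sets, 19572 had 1 gene symbol in GEO's platform annotation, 0 had several and 9274 had none. Where a symbol had several sets (55 genes, none among the 40), the set of highest mean was kept. The sets whose identifiers carry the mark neg served as negative controls.

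Differences between the groups were tested on all 8 arrays with lmFit and eBayes of limma 3.58.1 (R 4.3.3), two-sided and with no covariate, and p-values were adjusted over 19505 genes by Benjamini-Hochberg at a threshold of 0.05. The fit was tested on simulated data. Intervals are 95% intervals before adjustment. Correlations used 4 pairs with permutation tests over all pairings, two-sided, which are exact except with the group means removed. The number of arrays limits the precision, and the median SE over all genes was 0.234. The series design calls the samples biological replicates. Shared replicate numbers did not pair the samples, with correlations of deviations of -0.061 to 0.039. Alternatives left out each sample, blocked on replicate number, changed the variance model, array weights, normalization, probe set choice and dim genes. Named genes were 16 listed members, the 8 of smallest p, those above background on every array and 4 per further list. The 40 genes and all lists were chosen with earlier results of these data known.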

Additional observations from a re-analysis of the deposited data

Results flagged for a closer look

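Among the 80 sets of 4 samples examined (40 genes in both groups), 7 had a sample far from the other 3, judged by the gap to the nearest sample as a share of the group's range (Dixon's test at 95%). Chance alone flags about 1 in 20, or 4 of 80. In a3a6KO, Slc30a1 was at 6.90 in a3a6KO 2 and between 6.53 and 6.59 in the others (gap ratio 0.838). Slc39a14 was at 7.55 in a3a6KO 1 and between 8.77 and 9.01 in the others (0.836). In control, Mtf1 was at 7.13 in control 4 and between 5.41 and 5.51 in the others (0.942). Slc30a4 was at 5.35 in control 4 and between 6.17 and 6.33 in the others (0.837). Ireb2 was at 5.45 in control 2 and between 6.64 and 6.84 in the others (0.856). Slc30a5 was at 6.63 in control 1 and between 6.08 and 6.16 in the others (0.855). Slc30a8 was at 2.84 in control 3 and between 2.58 and 2.62 in the others, below background throughout (0.846).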

How the results depend on the processing

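The count of 0 called genes held for the 40 genes, the 69 further metal genes and all genes under 8 fits that each left out 1 sample and 7 other alternatives, and the smallest adjusted p of the 40 genes over these was 0.786, shared by Slc11a2, Slc39a6 and Aco1 with dim genes left out. That filter kept 12 of the 40 genes, whose median difference was 0.089. With the replicate block, 0 genes were called. Unadjusted p was then under 0.05 for 5 of the 40 genes in place of 2, and for 1003 of all 19505 genes in place of 1000. The signs of 23 genes held throughout, and those of 17, each differing by at most 0.135, did not. Centring arrays on their medians gave 0.023 for Ftl1 and Slc39a7, cyclic loess gave 0.0057 for Slc39a7, and array weights gave -0.031 for Slc39a4. With single samples left out, Atp7a ranged from -0.28 to 0.11, Slc31a2 from -0.25 to 0.19, Fth1 from -0.072 to 0.0017, Ftl1 from -0.043 to 0.035, Heph from -0.079 to 0.30 and Mt2 from -0.11 to 0.056. Slc30a3 ranged from -0.09 to 0.15, Slc30a5 from -0.029 to 0.16, Slc30a6 from -0.17 to 0.19, Slc30a7 from -0.057 to 0.44, Slc30a8 from -0.14 to 0.063 and Slc30a9 from -0.13 to 0.16. Slc39a1 ranged from -0.38 to 0.40, Slc39a4 from -0.16 to 0.32, Slc39a7 from -0.19 to 0.35, Slc39a10 from -0.10 to 0.25 and Slc39a13 from -0.32 to 0.14. Pearson's r of Mt1 with Mt2 ranged from 0.708 to 0.885, and that of Tfrc with Slc11a2 from -0.195 to 0.310. Tfrc with Slc11a2 had r = -0.228 with group means removed and -0.630 without the 2 samples farthest from the Tfrc median. The cause of these changes was not tested. Genes below background limit what these arrays can show.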
